A study of Mus musculus with 8 samples.

Results

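Interferon response and antigen processing genes were described in whole corneas of mice given dexamethasone eye drops. The set holds 39 genes, chosen by name: subunits of the interferon receptors, factors that carry the signal to the nucleus, sensors of foreign nucleic acid, genes known to be induced by interferon, and genes that prepare peptides for display on MHC class I molecules. All 39 were found in the deposited table of 24918 gene rows, each as a single row, and all 39 had a mean of at least 3 on the authors' log2 normalised scale, so that each was among the 14715 rows tested. The label of the set fitted the table in so far as every gene named was present. The rule used gene names and this minimum alone, but the 39 genes were chosen with earlier results of these data known.

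The dexamethasone group and the vehicle group each had 4 libraries. All animals were male wild-type C57BL/6J mice whose adrenal glands had been taken out when they were 8 weeks old (adrenalectomized), so both groups lacked the main source of their own corticosteroids. About 4 weeks after surgery the eyes received drops containing dexamethasone, a synthetic glucocorticoid, or vehicle drops, for 6 h. Each library was made from total RNA of a pool of 4 to 6 corneas, and neither the number of animals behind a pool nor whether pools shared animals is stated, so p-values measure the spread between these pools only. Reads were paired-end, of 75 bp, and each sample had over 40000000 of them by the labels' account.

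Interferons are secreted proteins that signal through cell-surface receptors. Type I interferons bind a receptor of the subunits Ifnar1 and Ifnar2, and interferon gamma binds a receptor of Ifngr1 and Ifngr2. Type I signalling activates a complex that contains Stat2 and Irf9 and binds the interferon-stimulated response element in the promoters of target genes, whereas interferon gamma acts mainly at another sequence, the gamma-activated site. Irf7, itself an interferon target, drives further transcription of type I interferon genes. In the cornea, a tissue exposed to airborne pathogens, epithelial cells and resident macrophages respond to interferon. Glucocorticoids are used in the eye against inflammation and are known to repress part of this response in immune cells.

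The response element was looked up first, because it is the sequence bound by the complex that contains Stat2 and Irf9. Promoters were taken from RefSeq on build GRCm38.p6, in which 31 of the 39 genes had an entry. The letters searched were GAAANNGAAA, on both strands, in the 250 bases before the start of the gene. They were found at 11 of 31 genes, or 35.5%, against 3.46% of the 27025 genes in the table. The matches of 6 genes known as direct interferon targets, from the IFIT and OAS families and of Isg15 and Rsad2, are given here in the direction of the gene, with the match in capitals and its surroundings in lower case. Where the capitals read TTTC, the match lies on the opposite strand, and longer capital runs hold overlapping matches.
Ifit1, chr19:34640773-34640806 (+): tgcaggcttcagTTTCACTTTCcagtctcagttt
Ifit1, chr19:34640792-34640825 (+): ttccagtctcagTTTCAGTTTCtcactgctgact
Ifit3, chr19:34583361-34583394 (+): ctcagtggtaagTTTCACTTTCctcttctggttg
Ifit3, chr19:34583395-34583428 (+): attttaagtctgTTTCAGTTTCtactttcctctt
Isg15, chr4:156200863-156200908 (-): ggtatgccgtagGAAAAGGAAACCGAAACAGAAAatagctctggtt
Oas1a, chr5:120907526-120907557 (-): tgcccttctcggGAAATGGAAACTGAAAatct
Oas3, chr5:120777713-120777746 (-): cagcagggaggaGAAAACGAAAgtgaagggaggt
Rsad2, chr12:26456551-26456584 (-): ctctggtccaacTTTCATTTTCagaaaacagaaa

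Ifit1 and Ifit3 thus held 2 separate matches each, Isg15 held 3 overlapping ones, and those of Oas1a lay 20 to 5 bases before the start. The other genes with a match were B2m, Bst2, Gbp2, Gbp3 and Stat2. The letters TTCNNNGAA of the gamma-activated site, which may overlap the response element, were found at 6 of 31 genes, or 19.4%, against 8.13% of all genes. The palindromic glucocorticoid response element, searched as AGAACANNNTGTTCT, was found at 0 of 31 genes and at 0.0111% of all genes. These are matches of letters in a fixed window and were not measured as binding sites.

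Before the results, 2 libraries need mention: replicate 1 of the dexamethasone group and replicate 3 of the vehicle group. They were taken beforehand to stand apart from their groups, and calls were therefore also made without them. Vehicle replicate 3 was the highest of its group in 28.9% of all tested rows and the lowest in 30.8%. For dexamethasone replicate 1 these shares were 25.7% and 25.4%, and for dexamethasone replicate 4 they were 27.0% and 25.4%. The treatment was visible in Fkbp5 and Tsc22d3, which are known targets of the glucocorticoid receptor. Fkbp5 averaged 14.50 ± 0.05 in the dexamethasone group and 13.62 ± 0.12 in the vehicle group (log2 normalised value, SD, n = 4 each), a 1.84-fold difference. Tsc22d3 averaged 13.59 ± 0.09 in the dexamethasone group and 13.00 ± 0.03 in the vehicle group, a 1.51-fold difference. Krt12, the keratin that defines corneal epithelium, stood at 19.73 ± 0.06 in the dexamethasone group and 19.74 ± 0.02 in the vehicle group. Fold changes are 2 raised to a difference of the authors' log2 values, whose transformation is not stated; if the values were shrunken, as some transformations for low counts do, such folds understate the change. The values are not per length, so where genes are picked or summed by mean value below, their order is not one of transcript abundance.

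With dexamethasone, 1 of the 39 genes was called higher and 0 were called lower, by limma with Benjamini-Hochberg adjustment over all 14715 rows at an adjusted p below 0.05. The gene called was Isg20. Among all tested rows 15.1% were called, 9.04% higher and 6.03% lower. At an unadjusted p below 0.05 there were 5 genes of the set, with 2 positive and 3 negative differences, beside 4391 of the 14715 rows. The 4 dexamethasone libraries did not overlap the 4 vehicle libraries in 2 of the 39 genes, Isg20 and Psmb9, against 20.7% of all tested rows. Differences, here always dexamethasone minus vehicle on the log2 scale, were positive in 17 genes and negative in 22, with a median of -0.03. They ranged from -0.26 in Rsad2 to 0.23 in Isg20. Over all tested rows 7132 differences were positive and 7583 negative. The split of the 39 genes rested on few libraries: without dexamethasone replicate 3 there were 21 positive differences, and with a term for the level of near-empty rows there were 10.

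The intervals apply to differences of the deposited values as they stand and bound no change on another scale. The 95% interval of the difference lay within 0.5 of 0 for 38 of the 39 genes, the exception being Rsad2 with a lower bound of -0.54, and within 0.3 of 0 for 30 genes. The genes varied more between pools than most: the median SD within groups was 0.0848 for the 39 genes and 0.0509 for all tested rows. The median size of the difference was 0.0666 for the 39 genes and 0.0506 for all tested rows. In a bulk sample, fewer cells of a type and less RNA per cell cannot be told apart.

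**Figure D1:**
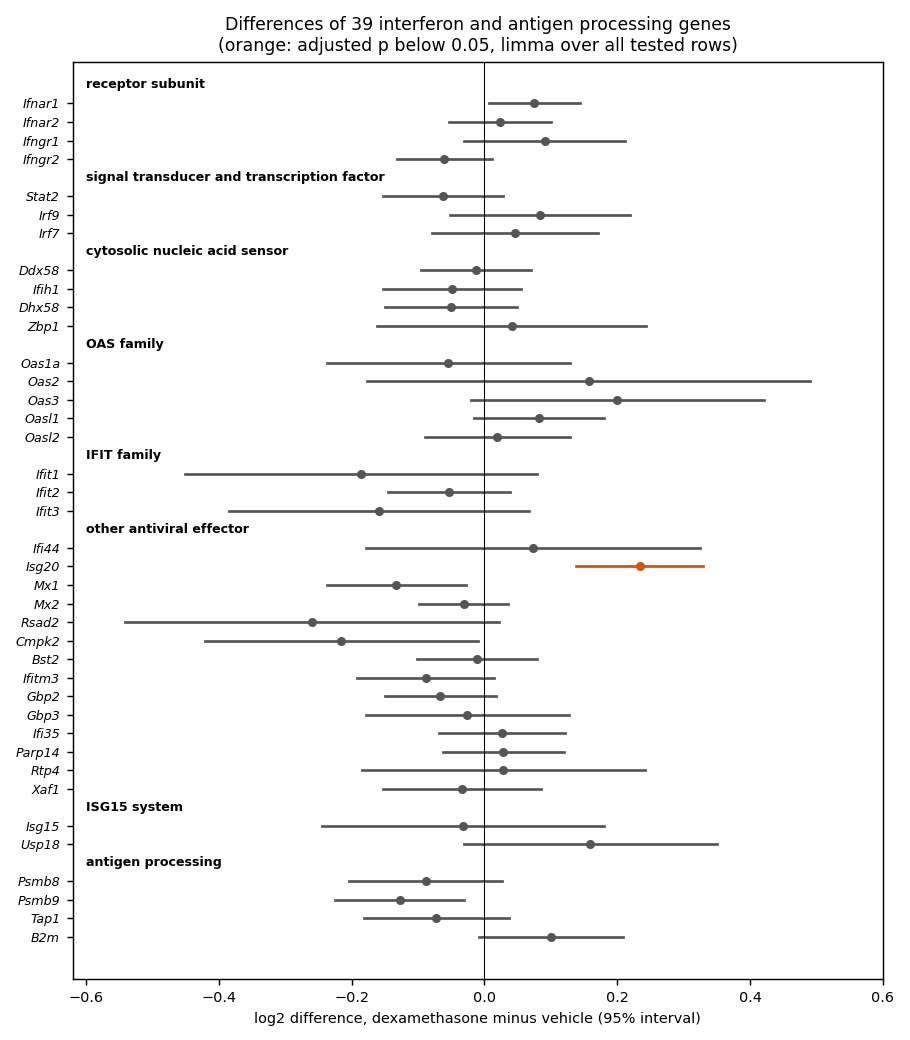
Difference of the log2 normalised value, dexamethasone minus vehicle, for each of the 39 genes, grouped by role; bars are 95% intervals from limma (4 libraries per group). Isg20, in orange, is the gene that was called, and the other 38 were not called.

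Isg20 (Entrez 57444), which encodes an exonuclease that degrades RNA, lies on the plus strand of chr7:86058310-86065248 in mm9. Its log2 normalised values in replicates 1 to 4 were 6.45, 6.37, 6.33 and 6.32 in the dexamethasone group and 6.09, 6.15, 6.24 and 6.07 in the vehicle group. Every dexamethasone library was above every vehicle library. The means were 6.37 ± 0.06 with dexamethasone and 6.14 ± 0.08 with vehicle (SD, n = 4 each), a difference of 0.23 (SE 0.04) or 1.18-fold, with a 95% interval of 1.10 to 1.26 and an adjusted p of 0.00425 (limma). In the promoter windows of Isg20 the response element was not matched, while 1 of them held a match to the gamma-activated site.

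The receptor subunits differed little between the groups. Ifnar1 had log2 values of 10.37, 10.27, 10.32 and 10.34 in the dexamethasone libraries and 10.23, 10.22, 10.31 and 10.25 in the vehicle libraries. Its groups overlapped through vehicle replicate 3, and the difference of 0.07 had an adjusted p of 0.135. Ifnar2, the partner subunit, had 8.48, 8.56, 8.52 and 8.49 with dexamethasone and 8.50, 8.50, 8.43 and 8.53 with vehicle. The ranges of the groups overlapped (difference 0.02, adjusted p = 0.699). For the interferon gamma receptor, Ifngr1 had 11.50, 11.42, 11.36 and 11.39 with dexamethasone and 11.24, 11.30, 11.51 and 11.25 with vehicle. Vehicle replicate 3 was the highest of all 8 libraries for Ifngr1, while the other 3 vehicle libraries were below every dexamethasone library (difference 0.09, adjusted p = 0.303). Without vehicle replicate 3 the adjusted p of Ifngr1 was 0.0144, and without dexamethasone replicate 1 and vehicle replicate 3 it was 0.0200, with a positive difference in both. Ifngr2 had 10.98, 11.08, 11.07 and 10.99 with dexamethasone and 11.09, 11.04, 11.14 and 11.09 with vehicle, overlapping ranges with a difference of -0.06 (adjusted p = 0.244).

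None of the 3 factors that carry the signal was called. Stat2, which binds DNA only through its partners, had log2 values of 10.24, 10.27, 10.13 and 10.33 with dexamethasone and 10.34, 10.27, 10.33 and 10.28 with vehicle. Dexamethasone replicate 3 was the lowest library, and the difference was -0.06 (adjusted p = 0.339). Irf9, the DNA-binding subunit of the complex, had 10.34, 10.53, 10.21 and 10.33 with dexamethasone and 10.33, 10.23, 10.35 and 10.18 with vehicle. Here too dexamethasone replicate 3 was the lowest of its group, with replicate 2 the highest (difference 0.08, adjusted p = 0.399). Irf7 (Entrez 54123, minus strand of chr7:148448605-148452380 in mm9) had 11.10, 11.28, 11.01 and 11.20 with dexamethasone and 11.17, 11.13, 11.12 and 10.99 with vehicle. Its spread within each group was wider than the difference of 0.05 between them (adjusted p = 0.641).

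The cytosolic sensors detect viral nucleic acid inside the cell, and 0 of 4 were called. Ddx58, also known as RIG-I, averaged 11.25 with dexamethasone and 11.27 with vehicle, a difference of -0.01. Ifih1, or MDA5, which senses long double-stranded RNA, averaged 10.55 with dexamethasone and 10.60 with vehicle (difference -0.05). Dhx58, or LGP2, which regulates these 2 sensors, averaged 8.61 with dexamethasone and 8.66 with vehicle (difference -0.05). These 3 sensors of RNA were thus all within 0.1 of the vehicle mean. Zbp1, a sensor of Z-form nucleic acid that can trigger cell death, averaged 7.13 with dexamethasone and 7.09 with vehicle (difference 0.04).

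The OAS family comprises 2′-5′ oligoadenylate synthetases, which activate the antiviral RNase L, and related proteins. Of its 5 genes in the set, 4 had a positive difference, with a median of 0.08, and 0 were called. With quantile normalisation 3 of the 5 were positive, and with the term for near-empty rows 2 were. Oas2 had the widest spread within groups of the 39 genes, with log2 values of 9.13, 9.45, 8.77 and 9.49 with dexamethasone and 9.36, 8.90, 9.12 and 8.83 with vehicle. The dexamethasone libraries alone spanned more than all 4 vehicle libraries, and the difference of 0.16 had an adjusted p of 0.531. Oas3 had 9.71, 9.94, 9.51 and 9.94 with dexamethasone and 9.80, 9.45, 9.62 and 9.43 with vehicle. Its order of libraries was like that of Oas2, with replicates 2 and 4 high under dexamethasone and replicate 1 high under vehicle (difference 0.20, adjusted p = 0.211). Oas1a averaged 7.20 with dexamethasone and 7.25 with vehicle (difference -0.05). Oasl1, which in mice restrains translation of Irf7, averaged 11.54 with dexamethasone and 11.46 with vehicle (difference 0.08). Oasl2 averaged 12.45 with dexamethasone and 12.43 with vehicle (difference 0.02). Oas1a has close copies beside it in the mouse genome, so reads of the copies may have been shared.

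**Figure D2:**
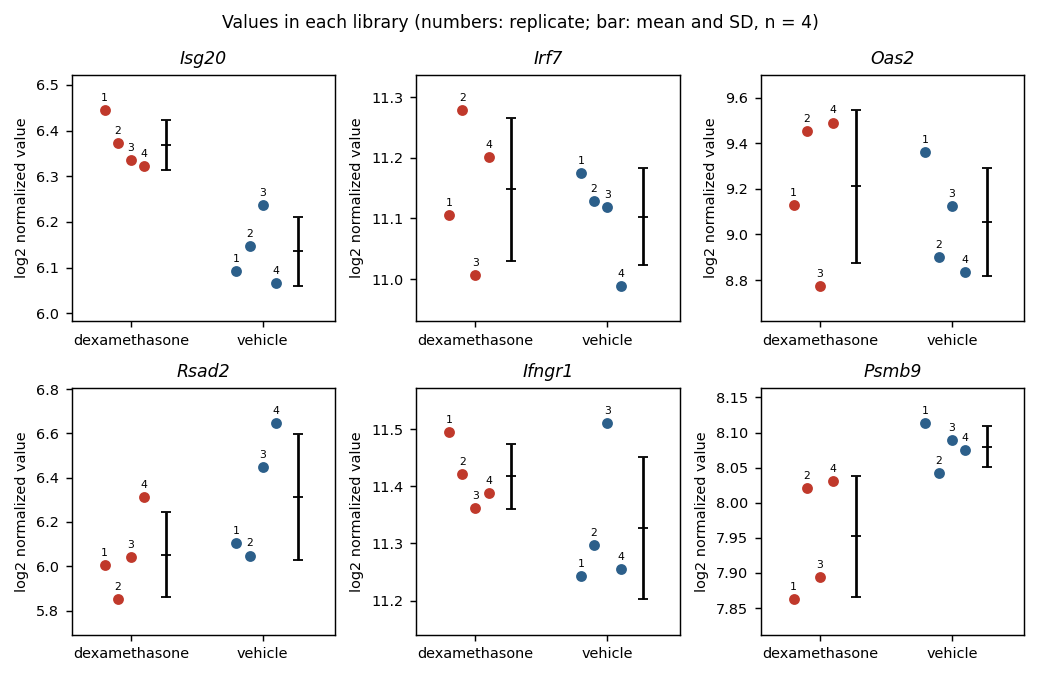
Log2 normalised value of Isg20, Irf7, Oas2, Rsad2, Ifngr1 and Psmb9 in each library, with dexamethasone on the left and vehicle on the right; points are libraries numbered by replicate, and bars are the mean and SD (n = 4). Isg20 and Psmb9 do not overlap between the groups, and in the other 4 genes the libraries overlap.

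The IFIT proteins bind viral RNA and block its translation. All 3 IFIT genes had a negative difference, with a median of -0.16, and 0 were called. On leaving out 1 library at a time all 3 stayed negative. The median then ran from -0.06 without dexamethasone replicate 3 to -0.25 without dexamethasone replicate 2. Ifit1 had log2 values of 9.23, 9.60, 9.08 and 9.58 with dexamethasone and 9.78, 9.33, 9.63 and 9.50 with vehicle. Dexamethasone replicates 1 and 3 were below all vehicle libraries while replicates 2 and 4 lay among them (difference -0.19, adjusted p = 0.335). Ifit3 had 9.63, 9.97, 9.40 and 9.84 with dexamethasone and 9.96, 9.72, 9.95 and 9.86 with vehicle. Its highest and lowest libraries were both dexamethasone libraries, replicates 2 and 3 (difference -0.16, adjusted p = 0.334). Ifit2 averaged 8.94 with dexamethasone and 8.99 with vehicle (difference -0.05) and varied less, with an SD of 0.02 in the dexamethasone group and 0.09 in the vehicle group. With a term added for the level of near-empty rows in each library, Ifit1 and Ifit3 were called lower, with differences of -0.39 (adjusted p = 0.0174) and -0.32 (adjusted p = 0.0292). The 3 genes lie together on chr19 in mm9, with 7.112 kb between Ifit2 and Ifit3 and 52.14 kb between Ifit3 and Ifit1, and Ifit1 and Ifit3 have close copies in the mouse genome.

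Beside Isg20 there were 13 other antiviral effectors in the set, none of which was called. Rsad2, or viperin, which makes a nucleotide that ends viral RNA chains, had log2 values of 6.00, 5.85, 6.04 and 6.31 with dexamethasone and 6.10, 6.05, 6.45 and 6.65 with vehicle. Vehicle replicates 3 and 4 were above every dexamethasone library, while vehicle replicates 1 and 2 were not (difference -0.26, adjusted p = 0.203). Cmpk2, a mitochondrial nucleotide kinase, is the neighbour of Rsad2 at 12.752 kb on chr12 and is described in full because it followed the same order, a choice made after its values were seen. It had 6.39, 6.30, 6.42 and 6.55 with dexamethasone and 6.46, 6.41, 6.80 and 6.84 with vehicle. Again vehicle replicates 3 and 4 stood highest (difference -0.22, adjusted p = 0.150). In both genes replicate 2 was the lowest and replicate 4 the highest library within each group. With the replicate number as a block in limma, Rsad2 had an adjusted p of 0.0163 and Cmpk2 of 0.0412. The labels do not say whether the replicate numbers pair the libraries.

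Mx1, a dynamin-like GTPase that blocks influenza viruses, was chosen for the same reason and had 4.83, 4.77, 4.82 and 4.83 with dexamethasone and 4.89, 4.81, 5.02 and 5.05 with vehicle. It too was highest in vehicle replicates 3 and 4 (difference -0.13, adjusted p = 0.0851), and it was called without vehicle replicate 2 (adjusted p = 0.0181). C57BL/6J mice are known to carry a defective Mx1 gene. Mx2, its paralog, averaged 4.28 with dexamethasone and 4.31 with vehicle (difference -0.03). Both Mx genes were among the lowest of the set in mean value.

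Ifi44 and Rtp4 also varied widely within the groups. Ifi44, an interferon-induced gene, had log2 values of 6.95, 7.31, 6.79 and 7.33 with dexamethasone and 7.20, 6.85, 7.04 and 6.99 with vehicle (difference 0.07, adjusted p = 0.719). Rtp4, which is known as a chaperone of receptors and an interferon target, had 7.82, 8.12, 7.58 and 7.89 with dexamethasone and 7.98, 7.72, 7.85 and 7.74 with vehicle (difference 0.03, adjusted p = 0.885). In both, dexamethasone replicate 3 was the lowest of all 8 libraries and vehicle replicate 1 the highest of its group.

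Bst2, or tetherin, which holds budding virus at the cell surface, averaged 6.92 with dexamethasone and 6.93 with vehicle (difference -0.01). Ifitm3, which stops viruses from fusing with endosomes, averaged 9.26 with dexamethasone and 9.34 with vehicle (difference -0.09). Gbp2, a guanylate-binding protein that attacks vacuoles of pathogens, averaged 10.21 with dexamethasone and 10.27 with vehicle (difference -0.07). All 3 differences were within 0.1. Its relative Gbp3 averaged 7.54 with dexamethasone and 7.57 with vehicle (difference -0.03). Ifi35, an interferon-induced protein, averaged 9.96 with dexamethasone and 9.93 with vehicle (difference 0.03). Parp14, an ADP-ribosyltransferase, averaged 10.59 with dexamethasone and 10.56 with vehicle (difference 0.03). Xaf1, a promoter of apoptosis, averaged 8.00 with dexamethasone and 8.03 with vehicle (difference -0.03). These 4 differences were within 0.1 as well.

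Isg15 is a ubiquitin-like protein that is attached to other proteins, and Usp18 removes it and also restrains the type I receptor. Isg15 had log2 values of 8.60, 8.88, 8.33 and 8.61 with dexamethasone and 8.72, 8.58, 8.75 and 8.50 with vehicle. The dexamethasone libraries held both the highest and the lowest value, replicates 2 and 3 (difference -0.03, adjusted p = 0.866). Usp18 averaged 7.72 with dexamethasone and 7.56 with vehicle (difference 0.16, adjusted p = 0.246). It was called higher without dexamethasone replicate 3 (adjusted p = 0.0499).

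Antigen processing genes were represented by 2 subunits of the immunoproteasome, which cuts proteins into peptides, by the peptide transporter Tap1 and by B2m, the light chain of MHC class I. None was called. Psmb9 had log2 values of 7.86, 8.02, 7.89 and 8.03 with dexamethasone and 8.11, 8.04, 8.09 and 8.08 with vehicle. All dexamethasone libraries were below all vehicle libraries, with dexamethasone replicate 4 and vehicle replicate 2 the nearest, and the difference of -0.13 had an adjusted p of 0.0756, the lowest among the genes not called. Psmb8, the other subunit, had 9.83, 10.02, 9.98 and 9.77 with dexamethasone and 10.05, 9.99, 9.96 and 9.94 with vehicle. Only dexamethasone replicates 1 and 4 were below the vehicle libraries (difference -0.09, adjusted p = 0.292). Tap1, whose gene lies 0.496 kb from Psmb8 on chr17, had 10.42, 10.69, 10.56 and 10.54 with dexamethasone and 10.67, 10.65, 10.56 and 10.61 with vehicle, with overlapping groups (difference -0.07, adjusted p = 0.364). B2m had 11.31, 11.43, 11.28 and 11.34 with dexamethasone and 11.37, 11.20, 11.14 and 11.25 with vehicle. It was the one gene of these 4 with a positive difference, 0.10 (adjusted p = 0.203), and vehicle replicate 1 lay among the dexamethasone libraries.

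Other genes of the pathway were read from lists that share no gene with the 39. Of 11 interferon genes, 0 could be tested: 4 were listed at 0 in every library, 5 had a mean below 3, and 2 had no row under the symbol used. Of 13 tested genes for kinases, signal factors, further receptor chains and inhibitors of the pathway, 0 were called. The 3 of them with the highest mean values were Jak1, Stat3 and Ptpn11. Of 22 sensors, adaptors and interferon regulatory factors, 3 were called higher and 3 lower with dexamethasone. Over all tested rows 9.04% were called higher and 6.03% lower. Ticam1, or TRIF, the adaptor of Tlr3, was higher by 0.24 (adjusted p = 0.000464). Tlr7, the endosomal receptor for single-stranded RNA, was higher by 0.23 (adjusted p = 0.00124), and Mavs, the adaptor of RIG-I and MDA5, by 0.10 (adjusted p = 0.0225). Those lower were Traf3, a ubiquitin ligase shared by these routes (difference -0.19, adjusted p = 0.0113), Mb21d1, or cGAS, the sensor of cytosolic DNA (-0.18, adjusted p = 0.00854), and Tmem173, or STING, its downstream adaptor (-0.13, adjusted p = 0.0350). Each of these 6 genes had groups that did not overlap, but Mavs and Tmem173 did not keep their calls under all alternatives. Tmem173 had adjusted p-values of 0.0516 to 0.0988 in the 8 alternatives that ended its call, among them leaving out dexamethasone replicate 2, 3 or 4 or vehicle replicate 1, 3 or 4. Mavs had 0.0627 without dexamethasone replicate 3 and 0.0773 without vehicle replicate 4, and it also lost its call with quantile normalisation and with the replicate block.

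Of 49 further interferon-stimulated genes that could be tested, 0 were called higher and 1 lower. The gene was Gbp4, a relative of Gbp2, with log2 values of 7.62, 7.69, 7.58 and 7.70 with dexamethasone and 7.96, 7.92, 7.91 and 7.86 with vehicle. Every dexamethasone library was below every vehicle library, with a difference of -0.26 (SE 0.04, adjusted p = 0.00116). Guanylate-binding protein genes are close copies of each other, and how shared reads were counted is not given in the sources used here. Among 15 tested genes of MHC class I presentation, 13 had a negative and 2 a positive difference, with a median of -0.07, and 0 were called. The 3 with the highest mean values were Pdia3, Calr and Canx, chaperones of the endoplasmic reticulum. Calr was called lower with quantile normalisation (adjusted p = 0.0337) and without vehicle replicate 1 (adjusted p = 0.0404), and Canx with quantile normalisation (adjusted p = 0.0132). The 3 catalytic subunits of the constitutive proteasome, Psmb5, Psmb6 and Psmb7, were not called either. All 8 tested genes of MHC class II presentation had a negative difference, with a median of -0.08, and 0 were called, with Cd74, Ctss and H2-Aa at the highest mean values. Over all tested rows 7583 of 14715 differences were negative. Genes of one list share the same libraries, so their signs are not separate observations.

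Although the group means of the 39 genes were close, single pools were not. The number of genes above their own group's mean was 32 of 39 in dexamethasone replicate 2 and 29 in replicate 4, against 9 in replicate 1 and 6 in replicate 3. In the vehicle group it was 29 in replicate 1 and 25 in replicate 3, against 10 in replicate 2 and 11 in replicate 4. Over all tested rows this share lay between 46.8% and 51.8% in every library. Dexamethasone replicate 2 held the highest value of its group for 22 of the 39 genes (56.4%, against 22.4% of all tested rows). Dexamethasone replicate 3 held the lowest for 23 (59.0% against 23.3%). Vehicle replicate 1 held the highest for 22 (56.4% against 25.4%). Vehicle replicates 2 and 4 held the lowest for 15 (38.5% against 23.3%) and 14 (35.9% against 19.6%). The median deviation of a library from its group mean was small, from -0.06 in dexamethasone replicate 3 to 0.08 in dexamethasone replicate 2.

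The roles did not all take part. In dexamethasone replicates 2 and 4 all 5 OAS genes were above the group mean, and in replicates 1 and 3 all 5 were below it. The same held for 2 of the 3 IFIT genes, while the third, Ifit2, was not above the mean in dexamethasone replicate 2. Of the 4 receptor subunits, 3 were above the group mean in dexamethasone replicate 2 and 1 in replicate 4. Rsad2, Cmpk2 and Mx1, as described above, were highest in vehicle replicates 3 and 4 in place of vehicle replicate 1.

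**Figure D3:**
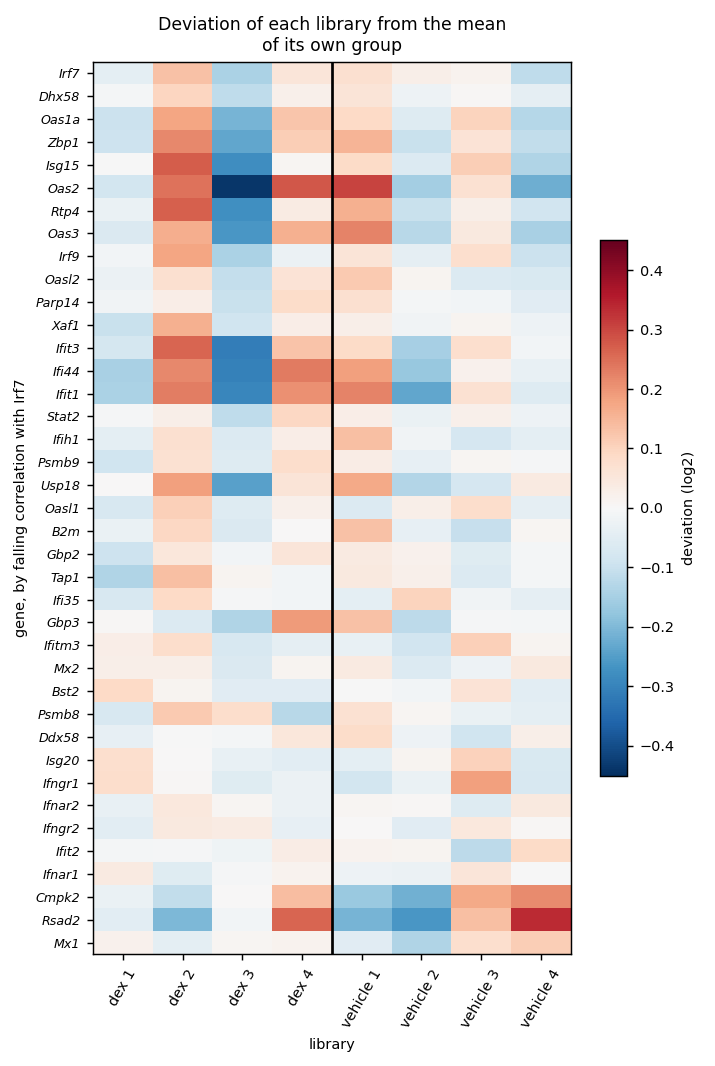
Deviation of each library from the mean of its own group (log2 normalised value) for the 39 genes, ordered by their correlation with Irf7, with the 4 dexamethasone libraries on the left. Most genes in the upper rows are above the mean in dexamethasone replicates 2 and 4 and in vehicle replicate 1, and below it in dexamethasone replicate 3.

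To describe this covariation, each gene's deviations from its group means were correlated with those of Irf7 over the 8 libraries. Of 38 genes, 32 had a Pearson correlation above 0 and 17 had one of at least 0.7, which is 44.7% of them, whereas 2.81% of the other 14714 tested rows reached 0.7. The median correlation was 0.60 for the 38 genes and -0.03 for those rows. The genes share their libraries and the normalisation of those libraries, so they are not independent of each other. They were also chosen with earlier results of these data known. Dhx58 came closest to Irf7 (r = 0.93, rho = 0.93, exact permutation p = 0.0104 for each, n = 8), followed by Oas1a (r = 0.92, exact p = 0.00694, rho = 0.88, exact p = 0.0312) and Zbp1 (r = 0.91, exact p = 0.0122, rho = 0.93, exact p = 0.0104). Isg15 had r = 0.90, Oas2 and Rtp4 0.89, Oas3 and Irf9 0.87 and Oasl2 0.86. No pair passed adjustment over the 41 pairs compared, where the lowest adjusted exact p was 0.0997 for Pearson's r. The smallest exact p that 576 orders of the libraries allow is 0.00174.

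The lowest correlations with Irf7 were those of Mx1 (r = -0.52), Rsad2 (r = -0.45), Cmpk2 (r = -0.43), Ifnar1 (r = -0.36) and Ifit2 (r = -0.15). Thus genes that belong to the same textbook response did not all have a high correlation with Irf7 in these pools. The exact permutation p-values of these low correlations ran from 0.0990 in Mx1 to 0.675 in Ifit2. With 8 libraries they do not show that the genes vary apart from Irf7. Without dexamethasone replicate 3 and vehicle replicate 4, the libraries farthest from the median of Irf7, 18 genes had a correlation of at least 0.7, against 7.92% of the other rows. Of the 17 genes that reached 0.7 with all libraries, 14 did so without these 2, and the lowest of the 17 was then Stat2 at 0.37. Some low correlations moved far: Ifnar2 stood at 0.00 with all libraries and at 0.78 without these 2, and Bst2 at 0.23 and then at -0.58. Among the antigen processing genes, Psmb8 and Tap1 had r = 0.74 (exact p = 0.104, rho = 0.81, exact p = 0.0417), and Psmb8 and Psmb9 had r = 0.06 (exact p = 0.823, rho = 0.02, exact p = 0.979), neither of which passed adjustment.

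**Figure D4:**
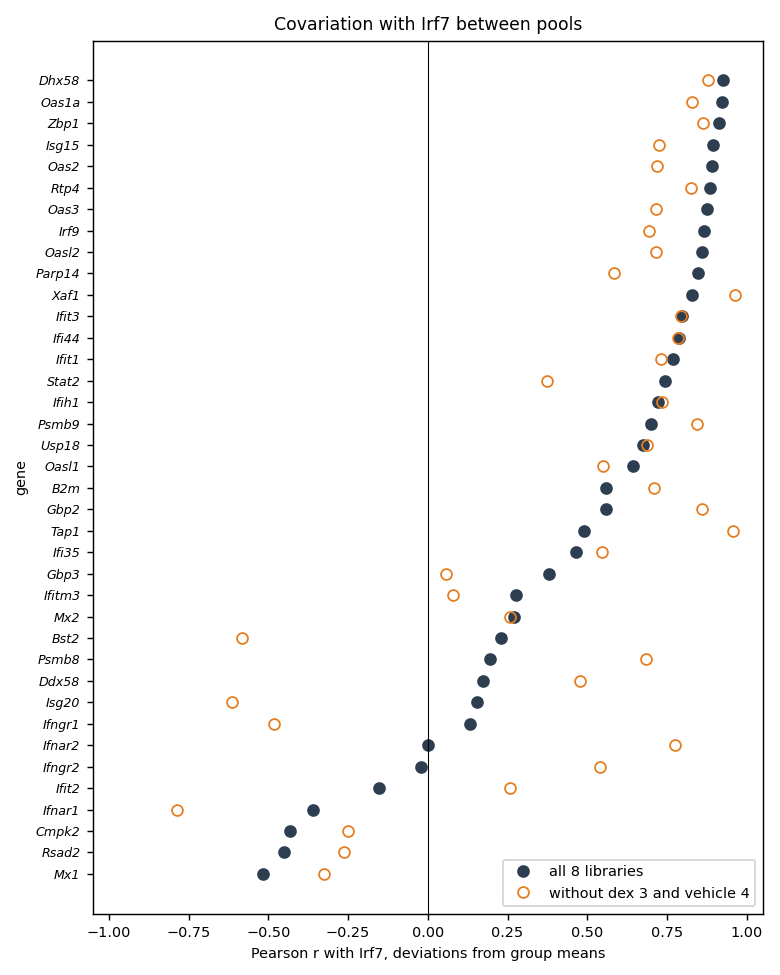
Pearson correlation with Irf7 of each of the other 38 genes, computed on deviations from group means over 8 libraries (filled) and over 6 libraries, without dexamethasone replicate 3 and vehicle replicate 4 (open). Dhx58, Oas1a, Zbp1 and Isg15 are at the high end, and Mx1, Rsad2 and Cmpk2 are at the low end.

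The promoter matches shown above were set beside these correlations. Of the 11 genes with a match to the response element, 6 had a correlation with Irf7 of at least 0.7, with a median of 0.74 and a range from -0.45 in Rsad2 to 0.92 in Oas1a. Of the 19 genes with a promoter entry and no match, Irf7 itself left out, again 6 reached 0.7, with a median of 0.28. Rsad2 thus carried the match with a correlation of -0.45, while Irf9, with r = 0.87, had no match in the window. Dhx58, Zbp1, Oas2, Rtp4, Parp14, Usp18, Mx1 and Mx2 had no promoter entry and are in neither group. Their correlations ranged from -0.52 in Mx1 to 0.93 in Dhx58. Those of Dhx58, Zbp1, Oas2, Rtp4 and Parp14 reached 0.7, so the 2 medians do not cover all genes that went with Irf7.

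Markers of cells that could contribute interferon-induced RNA were read in the same libraries. Beside the counts of calls below, 15.1% of all tested rows were called, 9.04% higher and 6.03% lower. Of 12 markers of macrophages and dendritic cells, 11 could be tested, with 1 higher under dexamethasone (Mrc1, difference 0.23) and 2 lower (Lyz2, -0.23, and Cx3cr1, -0.21). Their summed level without Itgam, on the log2 scale, was 10.93 to 11.02 in the dexamethasone libraries and 10.98 to 11.01 in the vehicle libraries. It was highest in dexamethasone replicate 2 and lowest in dexamethasone replicate 4, both of which were high for the interferon genes. With Itgam, which made up most of the sum, it was 13.24 to 13.30 with dexamethasone, lowest in replicate 2 and highest in replicate 4, and 13.26 to 13.31 with vehicle. Of 8 lymphocyte markers 1 could be tested, and the sums were 4.14 to 4.17 with dexamethasone and 4.14 to 4.15 with vehicle. The summed level of 6 conjunctival markers was 15.79 in dexamethasone replicate 2, against 15.54 to 15.55 in the other dexamethasone libraries and 15.44 to 15.60 in the vehicle libraries. Of the 5 conjunctival markers tested 1 was called, Krt7, which was higher by 0.17 (adjusted p = 0.0166). The summed level of 6 markers of wounded keratinocytes was 17.25 to 17.43 with dexamethasone, highest in replicate 1, and 17.28 to 17.61 with vehicle, highest in replicate 3. The 4 markers of plasmacytoid dendritic cells, a main source of type I interferon, summed to 11.04 to 11.08 with dexamethasone and 11.09 to 11.19 with vehicle, without overlap. Tcf4, which made up nearly all of this sum, had a difference of -0.09 without overlap (adjusted p = 0.0656). Among all tested rows, 20.7% had groups without overlap. Ccr9 was called higher (difference 0.16), and Il3ra had a difference of 0.05 with overlapping groups (adjusted p = 0.469). The defining Siglech was too low to be tested, as were Cd3e and Cd8a of T cells. Neutrophil markers, of which 2 of 7 could be tested, summed to 6.13 to 6.26 with dexamethasone and 6.18 to 6.30 with vehicle. For the cells of the cornea itself, the sums were 20.76 to 20.91 with dexamethasone and 20.87 to 20.92 with vehicle for corneal epithelium, and 18.17 to 18.25 with dexamethasone and 18.15 to 18.23 with vehicle for keratocytes. Within these lists Krt5 of the basal epithelium was called lower (difference -0.23, adjusted p = 0.0113), as were the keratocyte proteoglycan genes Kera (-0.14, adjusted p = 0.0241) and Lum (-0.18, adjusted p = 0.0128). The sums of blood vessel markers, 10.75 to 10.86 with dexamethasone and 10.63 to 10.73 with vehicle, did not overlap. Of the 5 blood vessel markers 1 was called higher and 0 lower. The part of these cells in the spread between pools was not tested.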

How the data were processed

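Libraries were made from total RNA of whole corneas. The submitters' processing notes name Bowtie2, HTSeq, DESeq2 and the build mm9. The sources used here give no tool versions, gene annotation, strand setting or transformation. What the authors deposited is one table of log2 normalised values with 24918 rows, of which 5078 are listed at 0 in every library, and 8 columns. Whole reads were not recovered, so depth is unknown and counting intervals cannot be formed. Reads of overlapping genes on opposite strands may have been counted together.

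Groups came from the labels (4 dexamethasone and 4 vehicle libraries). The 39 genes, the 17 lists and the rule for named genes were chosen with earlier results of these data known. The list of corneal endothelium markers is not reported here. By that rule, values in every library are given for called genes, the receptor subunits, Stat2, Irf9, Irf7, the 4 antigen processing genes and the 8 others with the largest SD within groups. Both means are given for the rest. For the other pathway lists the called genes are named or, with none called, up to 3 by mean level. Marker lists are given as sums, with their called genes named except in the blood vessel list, where 1 is only counted. limma 3.58.1 in R 4.3.3 was fitted to the log2 values on group (empirical Bayes with a trend, two-sided), with Benjamini-Hochberg adjustment over 14715 rows (mean 3 or more). The threshold for a call was an adjusted p of 0.05. The fit was tested on simulated data. Correlations used deviations from group means, with exact two-sided permutation of libraries within groups, in Python 3.11.15 with SciPy 1.17.1. Gene positions in mm9 came from GENCODE vM1 on NCBIM37, in which 38 of the 39 genes matched a single gene. Alternatives changed the block, filter, pseudocount, scaling, variance model, library weights and libraries used.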

Additional observations from a re-analysis of the deposited data

Results flagged for a closer look

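In 4 of 120 sets of 4 libraries, over 60 named genes, a single library lay far from the other 3 of its group by Dixon's ratio, the gap to the nearest library divided by the range; chance alone flags about 1 in 20 sets, or 6. Mx2 was low in dexamethasone replicate 3, at 4.22 against 4.29 to 4.31 in the others (ratio 0.844). Ticam1 was high in dexamethasone replicate 3, at 9.39 against 9.33 to 9.34 (ratio 0.894). Ptpn11 was high in vehicle replicate 3, at 11.89 against 11.77 to 11.78 (ratio 0.906). Calr was low in vehicle replicate 1, at 13.32 against 13.46 in the others (ratio 0.947).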

How the results depend on the processing

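Isg20 was called higher under all 19 alternatives, with a difference of 0.21 to 0.27 and an adjusted p of 0.0011 to 0.0275. The count of the 39 genes called higher was 1, and 2 without dexamethasone replicate 1 and vehicle replicate 3 together, where Ifngr1 joined; leaving out 1 library at a time gave 1 to 2. The count called lower was 0, with 3 negative differences at an unadjusted p below 0.05. It was 2 with the replicate block (Rsad2 and Cmpk2), 3 with a term for the level of near-empty rows (Ifit1, Ifit3 and Psmb9, the last with a difference of -0.17 and an adjusted p of 0.0495), and 0 to 1 on leaving out 1 library. The count of all tested rows called was 2218, 1675 with the replicate block, 1558 with the near-empty term, 2677 with library weights and 1411 to 2131 on leaving out 1 library, the lowest without vehicle replicate 4. Same-numbered libraries had correlations of -0.314, 0.185, -0.143 and 0.135 between their deviations over all tested rows. Of 8 libraries, 1 correlated best with its own number. The labels do not say what the numbers mark, and whether same-numbered pools shared a day or animals was not tested. Over the 60 genes recomputed 1114 values kept their call, 12 gained and 12 lost one, where the cause was not tested. The replicate block also ended the calls of Mavs (adjusted p = 0.0618) and Tmem173 (adjusted p = 0.0860), and beside those of Rsad2 and Cmpk2 it changed no other call among these genes, which hold no cell type markers. Unknown read depth limits all of these values.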
